A study of Mus musculus with 6 samples.

Results

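The nuclear factor I genes Nfia, Nfib, Nfic and Nfix were followed across the cell classes of FOXR2-driven mouse brain lesions. The members were chosen by symbol, and all 4 were among the 32285 mouse genes of the deposited tables. Nuclear factor I proteins bind DNA as pairs, at a palindrome whose arms are TTGGC and GCCAA. Nfia and Nfib are known for switching neural progenitors towards glia and for astrocyte maturation, Nfix for timing the differentiation of neural stem cells, and Nfic best for tooth root formation outside the brain.

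Single nuclei of C57BL/6J mouse brain were profiled with 10x Multiome, which reads RNA and open chromatin (ATAC-seq) from the same nucleus. All animals had been electroporated in utero with plasmids for Foxr2 overexpression: a piggyBac vector that inserts into the genome and drives FOXR2, followed by GFP, from the ubiquitous CAG promoter. A separate piggyBac vector for the luciferase Akaluc, also with GFP, was delivered with it. The plasmids were aimed at progenitors of the ganglionic eminences, so that each lesion mixes electroporated cells with cells of the host brain. Foxr2 p53LOF also received Cas9 with a guide against the gene of p53, whereas Foxr2 alone did not. The animals' age at collection is not given in the labels. Counts were analysed for 1 library of each genotype. A second library of Foxr2 alone contributed its peak list, and its counts were not analysed here. There were therefore no replicates and no test could be made. Brackets give exact 95% intervals, which cover counting error only, and every difference is a difference between 2 libraries.

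The libraries held 10379 and 10096 barcodes for Foxr2 p53LOF and Foxr2 alone, with 96929539 and 59719847 RNA molecules (UMIs) and 102529894 and 118436178 ATAC counts in peaks. Filtering and doublet removal left 8359 and 8316 nuclei. These libraries shared 140 barcode sequences, and shared 34 and 19, respectively, with the second library of Foxr2 alone. Foxr2 RNA was at 42.6 CPM (counts per 1000000 UMIs) over the named classes of Foxr2 p53LOF, against 3.62 CPM for Foxr2 alone, and Trp53 was at 32.9 and 12.8 CPM. A Cas9 cut need not lower RNA, so the label is not checked by Trp53 RNA. Nuclei were clustered without the nuclear factor I genes and named from markers. Oligodendrocyte-like clusters exceeded the cut-off for 8 of 8 markers, astrocyte-like ones for 8 of 8, and the clusters of OPC-like (oligodendrocyte precursor) and COP-like (committed precursor) nuclei for 7 of 7. The COP-like cluster also passed for the OPC and oligodendrocyte markers, by a smaller margin. Neuron-like clusters did so for 7 or 8 of 8 and immune-like ones for 7 to 9 of 9. A further cluster of Foxr2 p53LOF was led by Abcc12, Egfr, Dbx2 and Rfx4 and carried 6 of 7 OPC and 8 of 8 astrocyte markers. Both marker sets passed by similar margins, so it was given no type name and is called mixed glia. Gm11266, which lies within Nfib on the other strand, was also among the leading genes of mixed glia. Gm11266 was not left out of the clustering, and its part in the grouping of these nuclei was not tested. Foxr2 p53LOF held 1120 mixed glia and 1242 COP-like nuclei, against 2 and 0 in Foxr2 alone, so these classes had no counterpart.

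The RNA question was where each member stood among the classes. Nfia and Nfib were highest in mixed glia, and Nfix was high in several glial classes. Nfic was low, from 22.5 CPM in mixed glia to 72.1 CPM in immune-like nuclei of Foxr2 alone. Nfia in mixed glia reached 2500 CPM [2470, 2531], which was 1.96-fold [1.83, 2.10] its level in astrocyte-like and 21.5-fold [20.7, 22.4] that in neuron-like nuclei of the same library. In Foxr2 p53LOF the astrocyte-like level of Nfia was 1277 CPM [1192, 1366], followed by 760 in oligodendrocyte-like, 759 in OPC-like, 536 in COP-like, 401 in immune-like and 116 in neuron-like nuclei. The main astrocyte-like clusters there stood at 1592 CPM [1434, 1762] and 1069 CPM [971, 1174]. The lower of them also passed for immune markers. In Foxr2 alone the order was astrocyte-like at 1600 CPM [1537, 1665], immune-like at 855, oligodendrocyte-like at 815, OPC-like at 738 and neuron-like at 119. Among neighbours in these orders, the intervals of oligodendrocyte-like and OPC-like nuclei overlapped in both libraries, as did those of immune-like and oligodendrocyte-like nuclei in Foxr2 alone.

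Nfib in mixed glia reached 1702 CPM [1677, 1728], which was 3.16-fold [2.84, 3.52] its astrocyte-like level and 15.8-fold [15.2, 16.5] its neuron-like level. The other Foxr2 p53LOF levels of Nfib were 539 CPM [484, 598] in astrocyte-like, 503 in OPC-like, 346 in oligodendrocyte-like, 219.5 in COP-like, 107.5 in neuron-like nuclei and 59.4 in immune-like ones. Foxr2 alone had 464 CPM in OPC-like, 456 in astrocyte-like, 273 in oligodendrocyte-like, 193 in neuron-like nuclei and 21.1 [10.9, 36.9] in immune-like ones. In both libraries, the astrocyte-like and OPC-like intervals of Nfib overlapped and all its other neighbouring levels were apart. Immune-like nuclei had the lowest Nfib in each library, while they ranked second for Nfia in Foxr2 alone.

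Nfix did not peak in mixed glia. Its level there, 215.5 CPM [207, 225], lay between 243 CPM [207, 283.5] in astrocyte-like and 198 CPM in oligodendrocyte-like nuclei of Foxr2 p53LOF, and neighbouring intervals overlapped. Nfix then read 160 CPM in OPC-like, 71.8 in immune-like, 71.6 in COP-like and 22.3 in neuron-like nuclei. In Foxr2 alone it read 158 CPM in oligodendrocyte-like, 94.2 in OPC-like, 82.1 in astrocyte-like, 58.1 in immune-like and 29.1 in neuron-like nuclei. Oligodendrocyte-like nuclei, not astrocyte-like ones, held the highest Nfix in Foxr2 alone, with intervals that did not overlap.

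Nfic ranged from 22.5 CPM [19.7, 25.6] in mixed glia, its lowest class, to 50.9 CPM [45.2, 57.1] in immune-like nuclei of Foxr2 p53LOF. The other classes of that library lay between 39.0 and 41.5 CPM. Foxr2 alone ran from 28.5 CPM in astrocyte-like to 72.1 CPM [51.8, 97.9] in immune-like nuclei. The mixed glia level of Nfic was 0.569-fold [0.379, 0.890] that of astrocyte-like nuclei, opposite in direction to Nfia and Nfib.

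**Figure D1:**
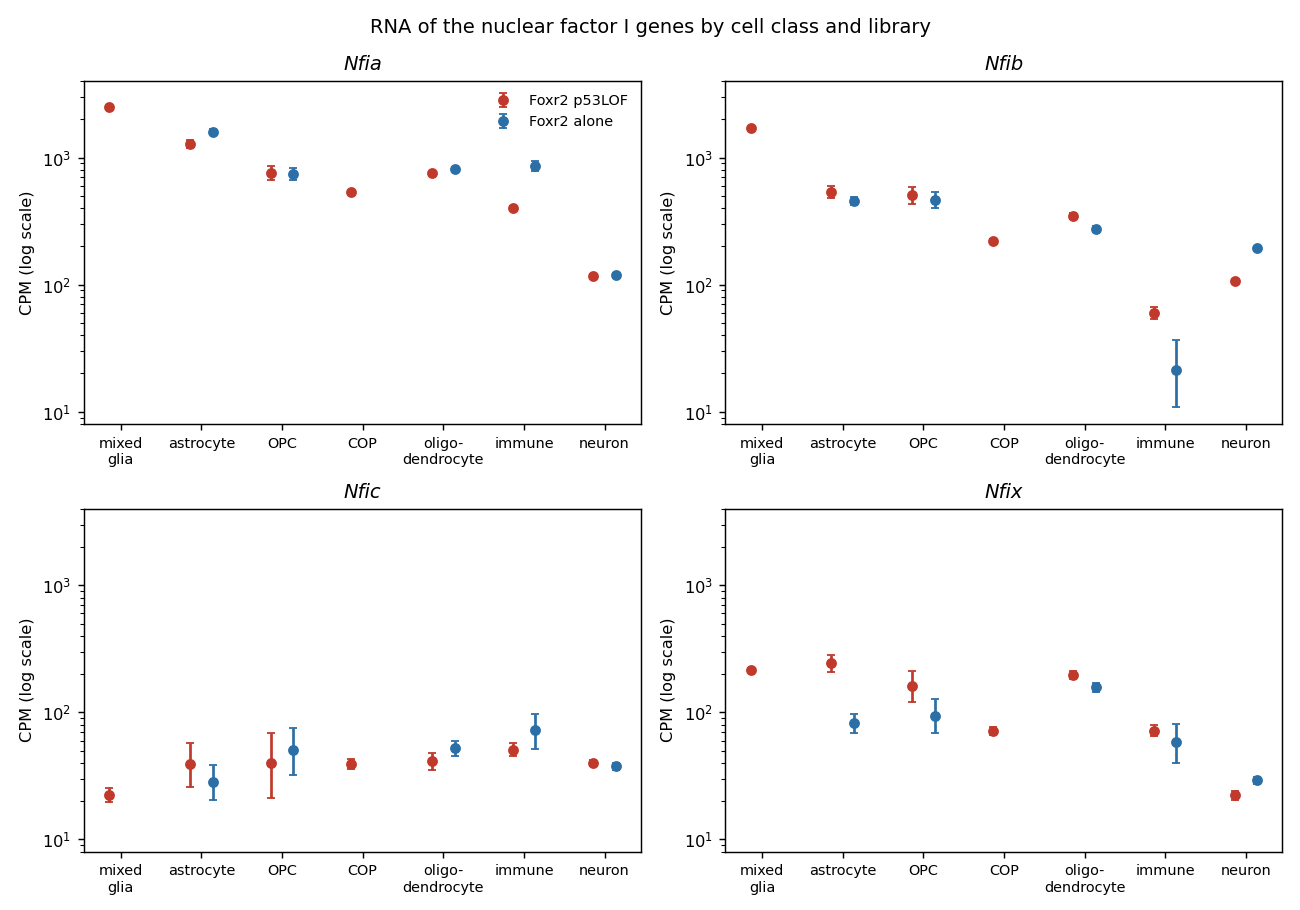
CPM on a log axis of Nfia, Nfib, Nfic and Nfix in each cell class; points are class sums of Foxr2 p53LOF (red) or Foxr2 alone (blue), and bars are exact 95% Poisson intervals. Mixed glia hold the highest Nfia (2500 CPM) and Nfib (1702 CPM), while Nfic lies between 22.5 and 72.1 CPM throughout.

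Nuclear RNA is read from introns as well as exons, so members were compared with each other per kb of gene span, which is 346.1 kb for Nfia, 415.6 kb for Nfib, 59.45 kb for Nfic and 100.5 kb for Nfix. In mixed glia the levels per kb were 7.22 CPM for Nfia, 4.10 for Nfib, 2.15 for Nfix and 0.378 for Nfic. In neuron-like nuclei of Foxr2 p53LOF the order changed, with 0.672 CPM per kb for Nfic, 0.335 for Nfia, 0.259 for Nfib and 0.222 for Nfix. On this scale Nfia led in every glial class of both libraries, and Nfic led in the neuron-like class of each. Without the division by span, Nfic stood below Nfia and Nfib in neuron-like nuclei of both libraries. Whether UMIs scale with gene span was not tested.

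Shares of nuclei were compared after each nucleus was thinned to 1000 UMIs. A Nfia UMI was then found in 78.4% [75.9, 80.8] of mixed glia (97.1% unthinned) and in 9.24% [8.07, 10.5] of neuron-like nuclei of Foxr2 p53LOF (39.4% unthinned). For Nfib the shares were 72.7% (95.9% unthinned) and 8.04% (29.5% unthinned). Immune-like nuclei of that library had a Nfib UMI in 4.35% [3.41, 5.45] after thinning (12.4% unthinned), and those of Foxr2 alone in 2.50% [1.01, 5.08] (2.59% unthinned). Median UMIs before thinning were 7837.5 in mixed glia, 9924.5 in neuron-like nuclei and 2588 in immune-like ones of Foxr2 p53LOF, and 1131 in immune-like nuclei of Foxr2 alone. Thinning left out 3 mixed glia, 1 neuron-like nucleus and 33 immune-like ones of Foxr2 p53LOF, and 144 immune-like ones of Foxr2 alone. Nfia and Nfib RNA were thus spread over most mixed glia nuclei. The low Nfib shares of immune-like nuclei, below those of neuron-like nuclei in both libraries, were not read as expression.

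Neurons did not behave as 1 class. The neuron-like clusters of the 2 libraries were almost separate, since each drew at least 98.3% of its nuclei from 1 library. In Foxr2 alone, a cortical glutamatergic-like cluster of 931 nuclei held 483 CPM of Nfib [469, 497] and 292 CPM of Nfia [281, 303]. Interneuron-like nuclei held 338.5 CPM of Nfib but 89.9 CPM of Nfia, and a further cortical glutamatergic-like cluster held 138 and 147 CPM. Striatal projection-like nuclei, the most numerous with 2281 nuclei, held 9.76 CPM of Nfib [8.28, 11.4] and 16.7 CPM of Nfia [14.7, 18.8]. In Foxr2 p53LOF, the main cluster carried the Slc17a6 glutamatergic markers, but the GABAergic genes Gad1 and Gad2 were also among its leading genes, so it was given no neuron type. It held 120 CPM of Nfib and 135 CPM of Nfia, and dopamine-like nuclei held 24.1 and 24.97 CPM.

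Nfix ranged from 6.91 CPM in striatal projection-like to 71.3 CPM in the cortical glutamatergic-like cluster of 931 nuclei. In the further cortical glutamatergic-like cluster it read 9.03 CPM, below the 22.9 CPM of the main cluster of Foxr2 p53LOF, although its Nfib was higher. Nfic stayed between 34.8 and 54.3 CPM in all 7 neuron-like clusters. The spread of Nfib among neuron-like clusters of 1 library was therefore far wider than the difference between the libraries, and the neuron-like library ratio sets different neuron-like clusters against each other.

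**Figure D2:**
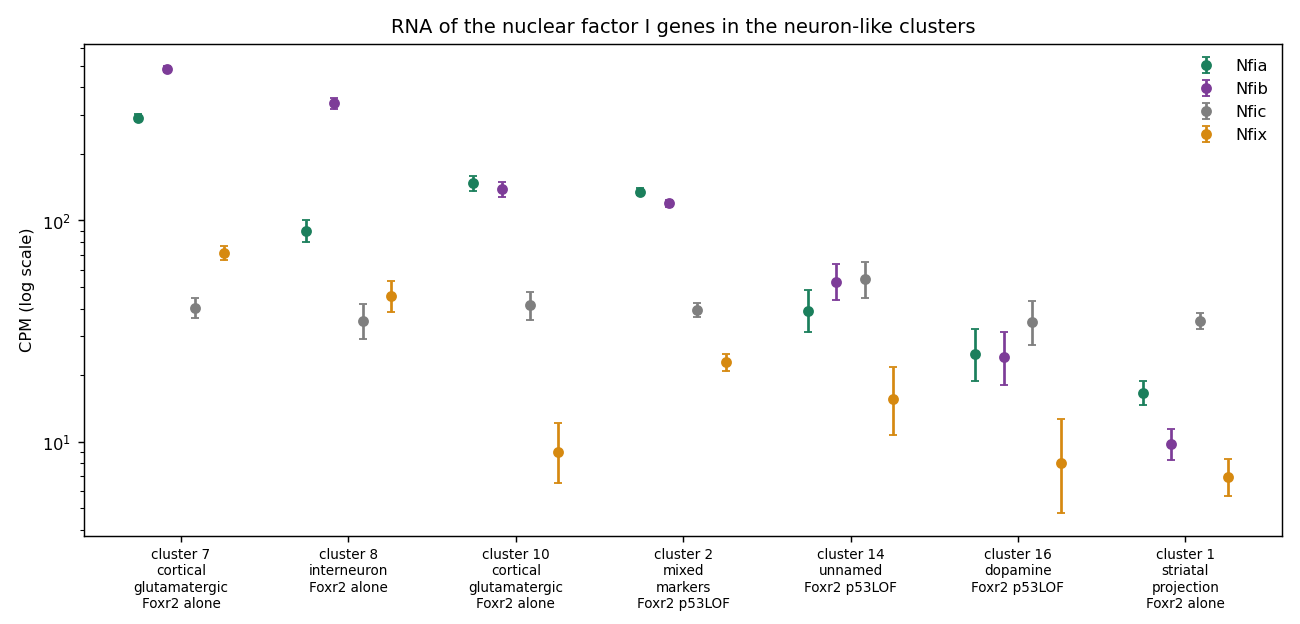
CPM on a log axis of the 4 genes in 7 neuron-like clusters, ordered by Nfib; bars are exact 95% Poisson intervals. Nfib runs from 483 CPM in a cortical glutamatergic-like cluster to 9.76 CPM in the striatal projection-like cluster, whereas Nfic lies between 34.8 and 54.3 CPM.

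The next question was how the members differed between the libraries with and without p53 loss, class by class. The neuron-like clusters included dopamine-like nuclei in Foxr2 p53LOF but cortical and striatal projection-like nuclei in Foxr2 alone. The libraries may therefore hold different brain regions, and region cannot be told apart from p53 loss in any class. Of the 20 member-by-class ratios, 3 were past 2-fold: Nfix in astrocyte-like nuclei, and Nfia and Nfib in immune-like nuclei. In neuron-like nuclei 0 of 4 members were past 2-fold, where 32.3% of all genes compared were. In oligodendrocyte-like nuclei it was 0 of 4 against 33.8%, and in OPC-like nuclei 0 of 4 against 33.1%. In astrocyte-like nuclei it was 1 of 4 against 35.8%, and in immune-like nuclei 2 of 4 against 38.5%. The family therefore did not stand apart from all genes. The median log2 ratio of all genes compared lay between -0.243 in OPC-like and -0.048 in neuron-like nuclei.

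In neuron-like nuclei Nfia stood at 116 CPM with p53 loss and 119 CPM without it, a log2 ratio of -0.037 [-0.106, 0.033]. In oligodendrocyte-like nuclei the ratio of Nfia was -0.10 [-0.17, -0.029], in OPC-like nuclei 0.040 [-0.20, 0.28] and in astrocyte-like nuclei -0.33 [-0.44, -0.21]. These differences were all smaller than 1.5-fold, but they depended on which nuclei were compared. Between single astrocyte-like clusters of Foxr2 p53LOF and Foxr2 alone, Nfia stood at 1592 against 1600 CPM. With stricter minimums on genes and fragments the oligodendrocyte-like ratio turned slightly positive. With each nucleus named by itself, without clusters, the ratio of Nfia was 0.37 in neuron-like, 0.78 in OPC-like and 1.83 in astrocyte-like nuclei. That naming has no mixed glia class, so the mixed glia of Foxr2 p53LOF were placed in other classes. Their part in these ratios was not tested. Nfic ratios were 0.090 [-0.032, 0.21] in neuron-like, -0.33 [-0.63, -0.030] in oligodendrocyte-like and 0.47 [-0.29, 1.21] in astrocyte-like nuclei, the last on 26 and 43 UMIs, and -0.33 [-1.43, 0.71] in OPC-like nuclei. Scaling by TMM factors shifted oligodendrocyte-like ratios by 0.064, so that the Nfic interval there reached positive values.

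Nfib was lower in the neuron-like nuclei of Foxr2 p53LOF, with 107.5 against 193 CPM and a log2 ratio of -0.85 [-0.91, -0.78], and higher in oligodendrocyte-like nuclei, with 346 against 273 CPM and a ratio of 0.34 [0.22, 0.46]. With each nucleus named by itself these ratios were -0.42 and 0.11 [-0.020, 0.24]. In the same oligodendrocyte-like nuclei Gfap stood at 89.3 against 9.41 CPM, Fabp7 at 68.0 against 3.56 CPM and Slc1a3 at 155.5 against 74.3 CPM, and their part in the Nfib and Nfix ratios was not tested. The neuron-like difference lies between the different neuron-like clusters given above. The astrocyte-like ratio was 0.24 [0.051, 0.43] and the OPC-like ratio 0.11 [-0.19, 0.42]. The ratios of Nfix were -0.39 [-0.54, -0.23] in neuron-like (0.023 [-0.15, 0.20] with each nucleus named by itself), 0.33 [0.17, 0.48] in oligodendrocyte-like and 0.77 [0.16, 1.39] in OPC-like nuclei. With minimums of 1000 genes and fragments the oligodendrocyte-like ratio of Nfix was 0.13 [-0.11, 0.37]. Gfap read 64.8 against 4.38 CPM in the OPC-like nuclei. Slc1a3, at 179 against 261 CPM, and S100b, at 46.3 against 83.2 CPM, lay in the other direction there. The part of these genes in the Nfix ratio of OPC-like nuclei was not tested.

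Nfix differed between the libraries in astrocyte-like nuclei. It stood at 243 CPM [207, 283.5] in the 127 astrocyte-like nuclei of Foxr2 p53LOF whereas the 425 of Foxr2 alone held 82.1 CPM [68.3, 97.9], for a log2 ratio of 1.56 [1.22, 1.91]. After thinning, 25.98% [18.6, 34.5] and 5.42% [3.47, 8.03] of these nuclei held a Nfix UMI (62.2% and 21.2% unthinned, with medians of 4043 and 2622 UMIs). Of all genes compared in this class, 19.8% differed at least as much. The astrocyte-like nuclei of Foxr2 p53LOF came mainly from 2 clusters, at 188 CPM [136, 252] and 274 CPM [226, 330] of Nfix, and both lay above the 1 cluster of Foxr2 alone. The second, of 54 nuclei, also passed for 8 immune markers, and the Foxr2 alone cluster for 7 neuron markers. The first cluster of Foxr2 p53LOF against the Foxr2 alone cluster gave a log2 ratio of 1.19 [0.66, 1.70]. Leaving out nuclei with a vector count gave 239 against 82.1 CPM. This removed 6 of the 127 nuclei of Foxr2 p53LOF and could remove none of Foxr2 alone, which had 0 vector peaks. The ratio could therefore hardly move. Gfap, the astrocyte filament gene raised in reactive astrocytes, was at 821 and 226 CPM in the same nuclei. Slc1a3, at 1834 and 4218 CPM, and S100b, at 114 and 142 CPM, lay in the other direction. The part of these genes in the difference was not tested. With each nucleus named by itself, which places mixed glia in other classes, Nfix differed by 2.09, and Nfib by 2.53.

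In immune-like nuclei, Nfia stood at 401 CPM [385, 418] with p53 loss and at 855 CPM [781, 935] without it, giving a log2 ratio of -1.09 [-1.23, -0.95]. The immune-like class of Foxr2 p53LOF came mainly from 9 clusters, from 81.2 CPM in one led by Chil3 and Ccr2, genes of infiltrating monocytes, to 694 CPM in one with the microglial genes Siglech and P2ry12 among its leading genes. Nearly all immune-like nuclei of Foxr2 alone were in 1 cluster, at 915 CPM. Between the P2ry12-led cluster and that cluster the ratio was -0.40 [-0.55, -0.24]. Scaling by TMM, which shifted the median of this class by 0.29, gave -0.80, and a finer clustering gave -0.31. The size of the class-wide difference thus depended on the scaling and on which nuclei were counted as immune-like. The finer clustering also moved Nfib in this class, and the part of glial nuclei in both shifts was not tested.

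Nfib in immune-like nuclei rested on 336 and 12 UMIs, with 59.4 against 21.1 CPM and a log2 ratio of 1.49 [0.67, 2.46]. It was 0.59 with doublets kept and 3.67 with the finer clustering. In immune-like nuclei Gfap read 102 CPM with p53 loss and 12.3 CPM without it, and Fabp7, a radial glia and astrocyte gene, read 71.1 and 1.76 CPM. Slc1a3, at 184.5 against 278 CPM, and S100b, at 12.9 against 38.7 CPM, lay in the other direction. Gfap and Fabp7 were higher with Nfib, and the part of glial RNA in its ratio was not tested. Nfix and Nfic had immune-like ratios of 0.31 [-0.21, 0.86] and -0.50 [-0.98, 0.0062].

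**Figure D3:**
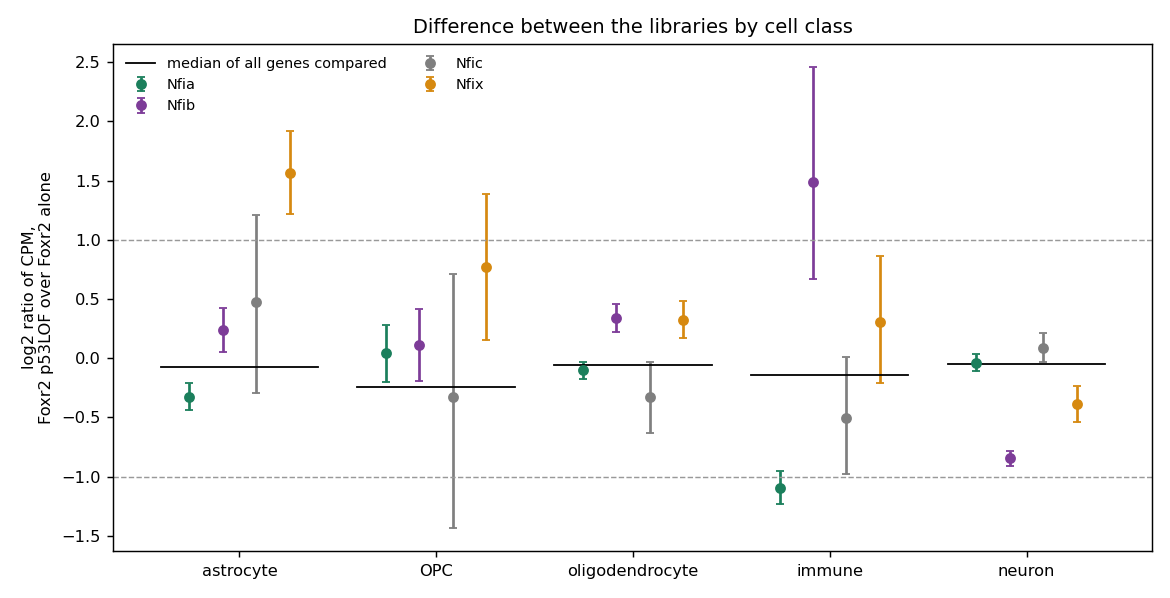
Log2 ratio of CPM of Foxr2 p53LOF over Foxr2 alone for the 4 genes in 5 cell classes; bars are exact 95% intervals for counting error, dashed lines mark 2-fold and black lines the median of all genes compared. Nfix in astrocyte-like nuclei (1.56) and Nfia (-1.09) and Nfib (1.49) in immune-like nuclei lie past 2-fold.

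Of the classes found in Foxr2 p53LOF only, mixed glia were set beside astrocyte-like and COP-like beside OPC-like nuclei of that library. Between mixed glia and astrocyte-like nuclei 1 of 4 members was past 2-fold, namely Nfib, where 39.0% of all genes were. The log2 ratios were 0.97 [0.87, 1.07] for Nfia, 1.66 [1.51, 1.82] for Nfib, -0.81 [-1.40, -0.17] for Nfic and -0.17 [-0.40, 0.069] for Nfix. Between COP-like and OPC-like nuclei 2 of 4 were, against 41.4% of all genes, and both were lower in COP-like nuclei. There Nfib stood at 0.436-fold [0.372, 0.515] and Nfix at 0.446-fold [0.337, 0.602] of the OPC-like level, and Nfia at 0.706-fold [0.621, 0.805]. COP-like nuclei thus had less Nfia, Nfib and Nfix than either precursor or mature oligodendrocyte-like nuclei, and 4.61-fold [4.41, 4.82] as much Nfia as neuron-like nuclei. At resolution 1.0 the COP-like cluster held 934 nuclei instead of 1242. An unnamed cluster of 289 nuclei, led by Pomc and Oacyl with a median of 1422 UMIs, appeared at that resolution. Its overlap with the COP-like nuclei was not tested.

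ATAC counts on the added Akaluc and GFP sequence, here called vector counts, mark nuclei with electroporated DNA. They do not mark the FOXR2 vector as such, since the Akaluc vector was separate and both hold GFP. Such counts were found in 31.0% [28.3, 33.8] of mixed glia and 26.9% [24.4, 29.4] of COP-like nuclei, and in at most 4.72% of any other class of Foxr2 p53LOF. The median ATAC counts in peaks were 10135.5 and 10176.5 in these classes and 5387.5 to 8903 in the others, and the part of depth in these shares was not tested. Within mixed glia, the 347 nuclei with and the 773 without a vector count had 2498 and 2502 CPM of Nfia, a log2 ratio of -0.0019 [-0.039, 0.036], and 1674 and 1716 CPM of Nfib, a ratio of -0.036 [-0.082, 0.0099]. Nfix had 204 and 221 CPM, a ratio of -0.11 [-0.25, 0.016]. Within COP-like nuclei Nfia had 598 and 507 CPM, a ratio of 0.24 [0.16, 0.31], and the ratios of Nfib, Nfic and Nfix were 0.33 [0.21, 0.45], 0.22 [-0.072, 0.50] and 0.36 [0.15, 0.56]. No member was past 2-fold in either class (0 of 4 each), where 0.391% of all genes in mixed glia and 0.584% in COP-like nuclei were. Nuclei with a vector count were deeper, with medians of 16306.5 against 7825 ATAC counts and 9790.5 against 7033.5 UMIs in COP-like nuclei, and 13059 against 8771 ATAC counts and 8359 against 7669 UMIs in mixed glia. A nucleus without a count may still carry a vector.

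Over 28 cluster-by-library profiles of at least 50 nuclei, Nfia and Nfix were each other's closest gene among 15443 genes, with a Pearson correlation of 0.881 of log2(CPM + 1). Next to Nfia came Lrig3 (0.849), a membrane protein with leucine-rich repeats, and Slc1a3 (0.839), the astrocyte glutamate transporter. Nfix was followed by Zcchc24 (0.860), a zinc finger gene, and Dock1 (0.853), an activator of Rac. The profiles most like Nfib were Npas3 (0.855), a transcription factor of neural progenitors and astrocytes, Gm11266 (0.848), which lies within Nfib on the other strand, and Zfpm2 (0.833), a GATA cofactor. Reads of Gm11266 and Nfib could be told apart only by strand, and whether the counting used strand is not given in the sources used here. Nfic was most like the lysosomal sialidase gene Neu1 (0.695), Flcn (0.694) and Atp13a2 (0.642), and its correlations with the other members were negative, at -0.130 with Nfia, -0.416 with Nfib and -0.0703 with Nfix. These profiles share libraries and depth, so the values are descriptions.

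A list of 20 genes of the gliogenic programme in which nuclear factor I acts was set beside the members. It holds partners (Sox9), genes switched on with Nfia in early glia (Apcdd1, Mmd2, Zcchc24), Notch effectors, oligodendrocyte factors and astrocyte genes. Several of its genes are named by the study, so that the list is not independent of these samples. In astrocyte-like nuclei 9 of the 18 measured genes were at least 2-fold higher and 1 at least 2-fold lower in Foxr2 p53LOF, where 16.0% and 19.8% of all genes were, and the median log2 ratio was 0.85 against -0.070. The highest were Fabp7 (4.004), Gfap (1.86) and Olig2 (1.83, on 14 and 9 UMIs), and the lowest Slc1a3 (-1.20), Hes1 (-0.78) and Zbtb20 (-0.73). In immune-like nuclei 6 of 13 were higher and 1 lower, against 15.7% and 22.7% of all genes, led by Fabp7 (5.34 [2.85, 10.64], on 402 UMIs and 1 UMI), Ezh2 (3.15) and Gfap (3.05), with S100b (-1.58), Slc1a3 (-0.59) and Notch2 (-0.081) lowest.

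In oligodendrocyte-like nuclei 6 of 16 were higher and 1 lower, against 13.2% and 20.6% of all genes, with Fabp7 (4.25), Gfap (3.25) and Notch1 (3.25) highest and Apcdd1 (-3.36), S100b (-0.46) and Sox8 (-0.37) lowest. In neuron-like nuclei 4 of 10 were higher and 2 lower, against 13.4% and 18.9%, with Fabp7 (4.36), Gfap (3.31) and the neural transcription factor Pou3f2 (1.49) highest, and the Notch effector Hes1 (-3.16), S100b (-1.35) and Mmd2 (-0.99) lowest. In OPC-like nuclei 3 of 16 were higher and 0 lower, against 10.6% and 22.5%, with Gfap (3.89 [1.85, 7.02], on 21 and 2 UMIs), the oligodendrocyte differentiation gene Zfp536 (2.22) and the Polycomb gene Ezh2 (1.02) highest. Sox10 (-0.83) and S100b (-0.85) were among its lowest, and Hes1 had 0 UMIs in Foxr2 p53LOF and 8 in Foxr2 alone. Fabp7 and Gfap stood higher in Foxr2 p53LOF in all 5 classes, neuron-like and immune-like nuclei included. In OPC-like nuclei, however, Fabp7 rested on 21 and 16 UMIs, with a ratio of 0.89 [-0.12, 1.92].

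Within Foxr2 p53LOF, 3 of 19 measured list genes were at least 2-fold higher in mixed glia than in astrocyte-like nuclei and 3 at least 2-fold lower, against 18.3% and 20.6% of all genes, with a median log2 ratio of -0.21 against 0.062. Apcdd1 (2.35), Ezh2 (1.33) and Olig2 (1.26) were highest, and the mature astrocyte gene S100b (-3.44), Sox9 (-1.19) and Notch2 (-1.11) lowest. Between COP-like and OPC-like nuclei 10 of 17 were past 2-fold, 4 higher and 6 lower, where 41.4% of all genes were past 2-fold in either direction. Zcchc24 (-2.87), Pou3f2 (-2.54) and Olig2 (-2.24) were lowest there, in the direction of Nfib and Nfix, and Zfp536 (1.87) was high. However, Olig2 is among the OPC markers that named the clusters, so its ratios in both comparisons are not independent of the naming. Sox9 (2.95 [0.46, 8.26]) and Notch2 (1.64 [-0.23, 4.69]) rested on 1 and 2 OPC-like UMIs.

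Accessibility was read from the peaks at the members' start sites, grouped into promoters and numbered from the 5′ end of each gene. All positions are on mm10 (GRCm38). Nfia lies on the forward strand of chromosome 4 (97772734 to 98118874) with 3 promoters, and Nfib on the reverse strand of the same chromosome (82290173 to 82705750) with 2. Nfic lies on the reverse strand of chromosome 10 (81396186 to 81455635) with 4, and Nfix on the reverse strand of chromosome 8 (84699876 to 84800344) with 2. Levels are peak counts per 1000000 peak counts of the class, also written CPM.

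The most upstream Nfib promoter had 0 peaks in every library. In Foxr2 p53LOF the internal Nfib promoter read 119 CPM in OPC-like, 103 in oligodendrocyte-like, 75.8 [69.2, 83.1] in mixed glia, 70.4 in astrocyte-like, 42.5 in COP-like, 13.3 in neuron-like nuclei and 5.20 [3.40, 7.38] in immune-like ones. It was nearly closed in immune-like nuclei of both libraries, with 3.97 CPM [1.46, 8.63] in Foxr2 alone. The mixed glia value was no higher than that of oligodendrocyte-like nuclei, unlike the RNA. Nfia promoters 1 and 2 were open in every class, at 45.5 to 93.9 and 15.8 to 45.3 CPM in Foxr2 p53LOF, lowest in neuron-like nuclei of both libraries. Nfia promoter 3, within the gene, was called in Foxr2 p53LOF only and read 9.01 CPM [6.80, 11.7] in mixed glia against at most 4.08 CPM elsewhere.

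Nfic promoter 2 was open throughout, at 37.8 to 72.8 CPM in Foxr2 p53LOF and 39.2 to 82.2 CPM in Foxr2 alone. Nfic promoter 4, the most downstream, was highest in immune-like nuclei, at 52.7 CPM [46.7, 59.0] and 96.2 CPM [81.5, 113.5]. The next class read 23.6 and 28.0 CPM. Foxr2 alone had 2 peaks there and Foxr2 p53LOF 1, and the peak that both share read 62.2 CPM in immune-like nuclei of Foxr2 alone. Nfic promoter 3 was low, from 6.61 to 26.8 CPM, and Nfic promoter 1 was called in Foxr2 p53LOF only, at no more than 4.58 CPM. In Foxr2 p53LOF, Nfix promoter 1 read 59.8 CPM in oligodendrocyte-like against 21.1 CPM in neuron-like nuclei, and the Foxr2 alone values were 80.4 and 17.8 CPM.

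**Figure D4:**
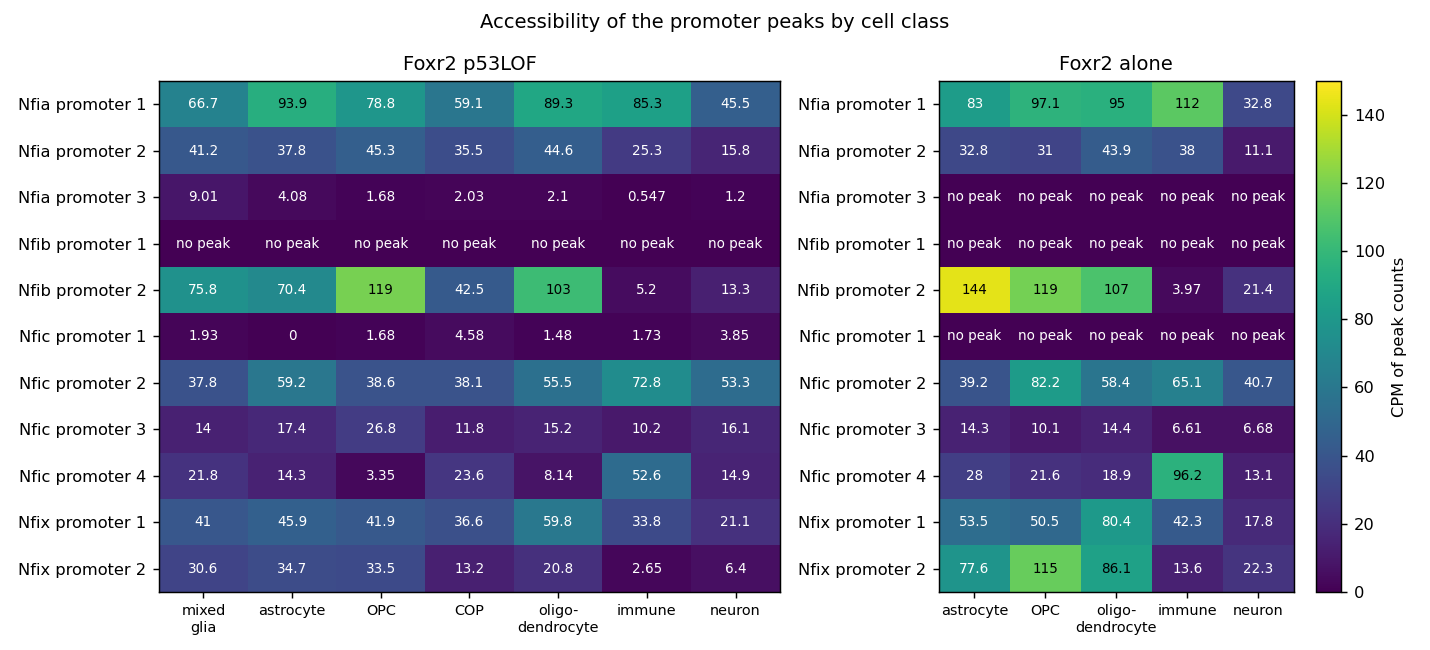
Peak CPM in each promoter (rows) and cell class (columns) of Foxr2 p53LOF and Foxr2 alone, with the value in each cell and colour on a linear scale. Nfib promoter 2 is near 0 in immune-like nuclei (5.20 and 3.97 CPM), and Nfic promoter 4 is highest in them (52.7 and 96.2 CPM).

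Between the libraries, some promoters differed in the direction of the RNA and others did not. In neuron-like nuclei Nfic promoter 3 read 16.1 against 6.68 CPM, a log2 ratio of 1.26 [0.95, 1.57], where the RNA ratio was 0.09 [-0.032, 0.21]. Nfia promoters 1 and 2 had ratios of 0.47 [0.30, 0.63] and 0.51 [0.22, 0.79] in these nuclei, where that of Nfia RNA was -0.037. Scaled to the peaks that both libraries share, both ratios fell below these intervals, as given in the closing section. Of all peaks, 53.9% in Foxr2 alone and 21.5% in Foxr2 p53LOF were highest in neuron-like nuclei. At Nfix promoter 1, astrocyte-like nuclei read 45.9 CPM [28.2, 68.0] with p53 loss and 53.5 CPM [43.6, 65.7] without it, for a log2 ratio of -0.26 [-1.0, 0.42], where Nfix RNA stood 1.56 higher. Nfix promoter 2 was lower in Foxr2 p53LOF in all 5 shared classes, at 34.7 against 77.6 CPM in astrocyte-like and 20.8 against 86.1 CPM in oligodendrocyte-like nuclei. However, 3 peaks were called there in Foxr2 alone and 1 in Foxr2 p53LOF. With only the peak that both share, the oligodendrocyte-like ratio was -1.03 [-1.39, -0.69] instead of -2.06, the astrocyte-like one -0.60 [-1.44, 0.15] instead of -1.16, and the immune-like one -0.050 [-1.72, 2.01] instead of -2.37. Nfib promoter 2 in astrocyte-like nuclei read 70.4 and 144 CPM, a ratio of -1.05 [-1.61, -0.53], and -0.68 [-1.25, -0.15] with shared peaks only, where Nfib RNA stood 0.24 higher. With each nucleus named by itself it was -0.021. In neuron-like nuclei the same promoter had a ratio of -0.68 [-0.97, -0.41], and -0.18 [-0.47, 0.11] with shared peaks only. Nfia promoter 1 read 85.3 CPM in immune-like nuclei with p53 loss and 112 CPM in those without, a ratio of -0.40 [-0.65, -0.13], in the direction of the RNA. With stricter minimums on genes and fragments that ratio was -0.0010.

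Within the genes, 39 peaks of Foxr2 p53LOF and 42 of Foxr2 alone fell in the Nfia locus (the gene with 10 kb on each side), 41 and 42 in that of Nfib, 19 and 17 in that of Nfic, and 26 and 24 in that of Nfix. Of all 112924 peaks of Foxr2 p53LOF, 12.1% were highest in mixed glia. Of the Nfib peaks, 23 of 41 were, against 11 of 39 for Nfia, 4 of 26 for Nfix and 0 of 19 for Nfic. Peaks had been called on each library as a whole. Of the 23, 10 were not called in Foxr2 alone. Summed over the locus and per kb of peak, Nfib accessibility was 17.2 CPM in mixed glia, 12.4 in astrocyte-like, 4.64 in neuron-like nuclei and 0.930 in immune-like ones. For the other members this sum was higher in astrocyte-like nuclei than in mixed glia. It was 15.9 against 14.9 CPM for Nfia, 21.9 against 18.9 for Nfix and 22.1 against 16.7 for Nfic.

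Sequences are shown for 6 peaks: 4 that differ between classes, the broadly open promoter peak of Nfic, and a Nfia peak that holds the motif. They are given as the central 300 bases of the peak, or 300 bases around the nuclear factor I motif, on the forward strand of GRCm38. Capitals mark TTGGC or GCCAA, the 5-base arms of the motif. The Nfic peak overlaps a coding exon, and the others lie in introns. The first is the Nfia peak with the largest astrocyte-like over neuron-like ratio in Foxr2 alone, at chr4:97874991-97875290:

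Nfia astrocyte peak: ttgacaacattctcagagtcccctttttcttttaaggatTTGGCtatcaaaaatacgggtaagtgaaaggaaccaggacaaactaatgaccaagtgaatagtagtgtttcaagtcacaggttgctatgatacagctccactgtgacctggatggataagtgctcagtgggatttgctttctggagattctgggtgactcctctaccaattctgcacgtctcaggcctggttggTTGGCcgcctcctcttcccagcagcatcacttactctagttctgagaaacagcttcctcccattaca

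In Foxr2 alone that peak read 50.2 CPM in astrocyte-like against 0.540 CPM in neuron-like nuclei, a log2 ratio of 6.55 [5.77, 7.41]. In Foxr2 p53LOF the same element read 48.0 CPM in astrocyte-like, 11.7 in mixed glia and 1.30 in neuron-like nuclei. All other classes of both libraries lay at or below 3.35 CPM, so the element was open in astrocyte-like nuclei and, less so, in mixed glia. Among peaks with at least 50 fragments in these classes, Foxr2 p53LOF instead ranked another intronic Nfia peak first (98108475 to 98109428), at 35.7 CPM in astrocyte-like and 4.11 in neuron-like nuclei.

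The mixed glia peak of Nfib was chosen after its values were seen, as the Nfib peak of Foxr2 p53LOF with the highest mixed glia level over the next class among peaks with at least 100 mixed glia fragments, at chr4:82550134-82550433. The 300 bases shown hold 3 single arms, and the peak holds no full motif:

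Nfib mixed glia peak: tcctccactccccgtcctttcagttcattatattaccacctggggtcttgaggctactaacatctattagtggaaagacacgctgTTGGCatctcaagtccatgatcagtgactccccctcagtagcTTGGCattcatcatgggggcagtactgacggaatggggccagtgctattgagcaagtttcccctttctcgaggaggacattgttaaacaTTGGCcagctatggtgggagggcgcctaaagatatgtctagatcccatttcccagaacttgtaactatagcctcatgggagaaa

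It read 33.9 CPM in mixed glia and 3.34 CPM in COP-like nuclei, the next class, 10.1-fold apart. Astrocyte-like nuclei read 3.06 CPM with p53 loss and 4.76 CPM without it. Chosen in the same way, with the same minimum of fragments, the Nfia and Nfix peaks stood 2.02-fold and 2.22-fold above the next class, and no Nfic peak was highest in mixed glia.

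The rule's peak of Nfib in Foxr2 p53LOF is its promoter 2 peak, at chr4:82506412-82506711, with 81.3% G and C and no arm in the 300 bases shown:

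Nfib promoter peak: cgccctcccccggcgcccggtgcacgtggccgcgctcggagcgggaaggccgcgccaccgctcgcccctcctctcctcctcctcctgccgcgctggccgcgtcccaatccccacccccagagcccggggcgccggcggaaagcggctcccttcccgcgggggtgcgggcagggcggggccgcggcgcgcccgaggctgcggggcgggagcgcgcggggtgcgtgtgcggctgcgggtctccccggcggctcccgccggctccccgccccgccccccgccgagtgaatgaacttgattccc

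It read 64.3 CPM in astrocyte-like, 9.99 in neuron-like nuclei and 4.75 in immune-like ones, and 116 CPM in OPC-like nuclei. In Foxr2 alone the rule gave an intronic peak (82446991 to 82447899), at 27.2 CPM in astrocyte-like and 2.36 in neuron-like nuclei.

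The Nfix peak was the same element in both libraries, at chr8:84712442-84712741:

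Nfix astrocyte peak: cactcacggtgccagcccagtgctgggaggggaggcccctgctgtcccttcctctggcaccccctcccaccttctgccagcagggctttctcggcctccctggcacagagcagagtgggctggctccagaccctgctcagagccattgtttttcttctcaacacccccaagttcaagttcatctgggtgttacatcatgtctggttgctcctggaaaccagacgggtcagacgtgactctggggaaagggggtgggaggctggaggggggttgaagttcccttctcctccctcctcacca

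It read 80.7 CPM in astrocyte-like, 39.5 in immune-like, 22.3 in mixed glia and 4.63 in neuron-like nuclei of Foxr2 p53LOF, and 63.1, 43.6 and 3.07 CPM in astrocyte-like, immune-like and neuron-like nuclei of Foxr2 alone. It was nearly closed in oligodendrocyte-like nuclei, at 3.70 and 4.23 CPM, although these had 198 and 158 CPM of Nfix RNA.

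Nfic is shown by its broadly open promoter 2, at chr10:81430394-81430693, with 77.7% G and C:

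Nfic promoter peak: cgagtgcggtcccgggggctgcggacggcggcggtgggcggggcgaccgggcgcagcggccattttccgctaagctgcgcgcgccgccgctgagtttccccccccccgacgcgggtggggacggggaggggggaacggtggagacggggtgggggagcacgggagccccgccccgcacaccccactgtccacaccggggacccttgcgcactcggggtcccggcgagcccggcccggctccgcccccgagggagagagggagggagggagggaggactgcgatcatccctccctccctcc

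The rule's Nfic peaks differed between libraries. In Foxr2 p53LOF it was 81401483 to 81402373, at 37.8 CPM in astrocyte-like, 10.4 in neuron-like nuclei and 64.2 in immune-like ones. In Foxr2 alone it was 81435208 to 81436106, at 39.0 CPM in astrocyte-like and 2.28 in neuron-like nuclei.

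The full motif, TTGGC and GCCAA with 5 bases of any kind between, reads the same on both strands. It occurred in 190 of 112883 peaks of Foxr2 p53LOF (0.168%), in 160 of 135165 of Foxr2 alone (0.118%), and in 12 of 32851 RefSeq promoter sequences of 300 bases (0.0365%), 0 of the 6 that belong to Nfia, Nfic and Nfix among them. Nfib had no entry. Of all locus peaks of the 4 genes, 1 held it in each library, at the same place in an intron of Nfia. It is shown at chr4:97869116-97869415:

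Nfia motif peak: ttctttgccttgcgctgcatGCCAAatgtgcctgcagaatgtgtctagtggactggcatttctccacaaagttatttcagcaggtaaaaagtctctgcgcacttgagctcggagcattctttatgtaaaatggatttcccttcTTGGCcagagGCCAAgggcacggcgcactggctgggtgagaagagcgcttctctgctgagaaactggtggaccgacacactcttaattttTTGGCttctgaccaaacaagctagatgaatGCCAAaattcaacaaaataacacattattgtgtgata

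This peak of Nfia was open in glia. It read 59.3 CPM in oligodendrocyte-like, 55.3 in OPC-like, 49.0 in astrocyte-like, 31.8 in mixed glia, 30.7 in COP-like, 13.7 in neuron-like nuclei and 3.47 in immune-like ones with p53 loss. In Foxr2 alone it read 78.3 CPM in oligodendrocyte-like, 44.0 in astrocyte-like, 22.2 in OPC-like, 17.7 in neuron-like nuclei and 4.30 in immune-like ones. Immune-like nuclei, with 401 and 855 CPM of Nfia RNA, were the class in which it was most closed.

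Over all peaks, those with the full motif took 0.182% [0.178, 0.185] of the fragments of mixed glia, 0.170% [0.158, 0.182] of those of astrocyte-like and 0.119% [0.117, 0.121] of those of neuron-like nuclei in Foxr2 p53LOF. Between these lay COP-like nuclei at 0.160%, oligodendrocyte-like at 0.151%, OPC-like at 0.138% and immune-like at 0.137%. The order of the classes was thus not that of Nfia or Nfib RNA. In Foxr2 alone astrocyte-like nuclei had 0.152% [0.146, 0.158] and neuron-like nuclei 0.102% [0.101, 0.103]. Oligodendrocyte-like, OPC-like and immune-like nuclei there had 0.143%, 0.133% and 0.130%. The mean G and C content of the fragments' peaks was 55.7% in mixed glia and 56.0% in neuron-like nuclei with p53 loss. Without it, the content was 56.4% in astrocyte-like and 53.2% in neuron-like nuclei, so that it moved with the motif share in this pair. Immune-like (57.4%), OPC-like (57.2%) and oligodendrocyte-like nuclei (56.9%) of Foxr2 alone had more G and C than astrocyte-like ones but smaller motif shares. The part of G and C content in the astrocyte-like to neuron-like difference was not tested. A match is a description of letters and does not show that a protein bound there.

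**Figure D5:**
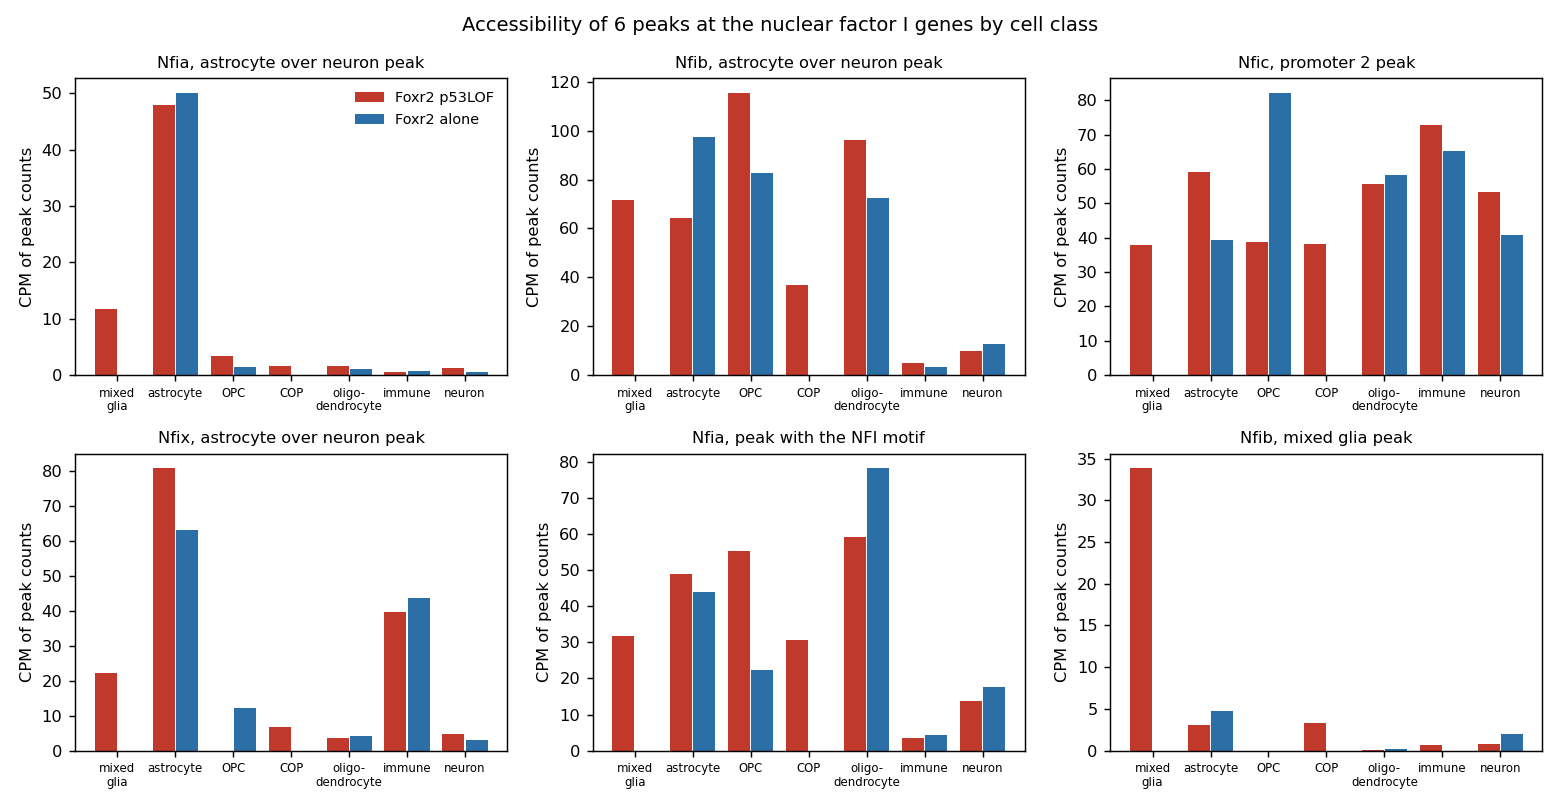
Peak CPM by cell class in the 6 peaks whose sequences are shown, with bars for Foxr2 p53LOF (red) and Foxr2 alone (blue); mixed glia and COP-like nuclei have no Foxr2 alone bar. The Nfia astrocyte peak reaches 48.0 and 50.2 CPM in astrocyte-like nuclei, and the Nfib mixed glia peak 33.9 CPM in mixed glia.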

How the data were processed

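Single nuclei were profiled for RNA and open chromatin in 3 libraries. Counts were analysed for 2 of them (1 per genotype), and 1 gave barcodes and a peak list only. The deposited values are raw counts per gene (UMIs) and per peak for each barcode. Per the submitters' processing notes the authors made them with Cell Ranger ARC 2.0.0 on mm10, calling peaks per library. Peak counts were mostly even, since each fragment counts 2 ends, so intervals used counts divided by 2.

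Nuclei with at least 400 genes and 400 fragments, at most 5% mitochondrial UMIs and values under the study's per-sample limits were kept, and doublets were removed with scrublet (expected 8%). The study's limits on start-site enrichment and nucleosome signal were not applied. Counts were scaled to 10000 UMIs, and 2000 variable genes without the members and the gliogenic list gave 30 principal components, 20 neighbours and Leiden clusters at resolution 0.5 (Python 3.11.15, scanpy 1.11.5, leidenalg 0.10.2, seed 100). Clusters were named from marker lists. The cut-offs for naming were set after the data were seen. A class holds the nuclei of all clusters of one name.

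Counts were summed per class and library and given as CPM. With 1 library analysed per genotype no test was made. Levels have exact Poisson intervals, shares exact binomial (Clopper-Pearson) ones and ratios exact conditional binomial ones, all at 95%. Background shares are over genes with at least 10 CPM in either class. Shares were thinned to 1000 UMIs. Promoters are groups of start sites of protein-coding transcripts within 3000 bases of each other, with 1000 bases on each side. The fixed design had used the 5′ end of the gene. TMM factors came from edgeR 4.0.16 (R 4.3.3).

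Named genes were the members, the 3 genes most correlated with each over profiles of at least 50 nuclei, and the 3 highest and 3 lowest of the 20-gene list per class. Named peaks were those at promoters and the one with the highest astrocyte-like over neuron-like level among peaks with at least 50 fragments. Members and lists were chosen with earlier results of these data known. Alternatives were stricter minimums, no doublet removal, finer clusters, naming each nucleus by itself, TMM, a minimum of 1 CPM, a wider promoter window and scaling to shared peaks. The scripts were tested on simulated counts. Promoter sequences are from RefSeq and peak sequences from GRCm38.p6.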

Additional observations from a re-analysis of the deposited data

Results flagged for a closer look

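Nfib and Nfix stood out because their library ratios had opposite directions in different classes, with intervals apart from 0. The log2 ratio of Nfib, Foxr2 p53LOF over Foxr2 alone, was -0.85 in neuron-like nuclei, against 0.34 in oligodendrocyte-like, 0.24 in astrocyte-like and 1.49 in immune-like nuclei. That of Nfix was -0.39 in neuron-like nuclei, against 0.33 in oligodendrocyte-like, 1.56 in astrocyte-like nuclei and 0.77 in OPC-like ones. The differences between classes were not tested, since counts of 1 library per genotype were analysed. With each nucleus named by itself the neuron-like ratio of Nfix was 0.023 [-0.15, 0.20], an interval that includes 0. So did those of oligodendrocyte-like Nfib under that naming, 0.11 [-0.020, 0.24], and of oligodendrocyte-like Nfix with minimums of 1000 genes and fragments, 0.13 [-0.11, 0.37]. The neuron-like values set different neuron-like clusters side by side.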

How the results depend on the processing

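No paired analysis was possible because counts of 1 library per genotype were analysed and the values come from no test. No replicate could be left out. Values below are log2 ratios of Foxr2 p53LOF over Foxr2 alone that fell outside the counting interval of the reported value, and the cause was not tested. When each nucleus is named by itself there is no mixed glia class, so those nuclei of Foxr2 p53LOF enter other classes. Naming each nucleus by itself moved 12 of 20 RNA ratios, more than any other setting: in neuron-like nuclei Nfia became 0.37, Nfib -0.42 and Nfix 0.023, in oligodendrocyte-like nuclei Nfia -0.21 and Nfib 0.11, in astrocyte-like nuclei Nfia 1.83, Nfib 2.53, Nfic -0.65 and Nfix 2.09, in OPC-like nuclei Nfia 0.78, and in immune-like nuclei Nfia -0.65 and Nfib 2.99. Minimums of 1000 genes and fragments gave 0.031 for Nfia and 0.13 for Nfix in oligodendrocyte-like nuclei, and -0.83 for Nfia and 0.27 for Nfic in immune-like nuclei. Keeping doublets gave Nfia -0.15 in astrocyte-like nuclei and 0.36 in OPC-like ones, and Nfib 0.59 in immune-like nuclei. Resolution 1.0 gave Nfia -0.31 and Nfib 3.67 in immune-like nuclei. TMM gave Nfia 0.033 and Nfib -0.78 in neuron-like and Nfia -0.80 in immune-like nuclei. Of the RNA levels, 23 of 44 moved with each nucleus named by itself, 12 of 48 with doublets kept, 10 of 48 with stricter minimums and 5 of 48 at resolution 1.0. Mixed glia kept 2378 to 2448 CPM of Nfia and 1630 to 1681 CPM of Nfib under the last 3. TMM shifted OPC-like and immune-like medians by 0.10 and 0.29.

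Alternatives added after seeing the data compared single clusters, left out nuclei with a vector count (8 of 8 ratios did not move) or used matched peaks. Only 6 of 127 astrocyte-like and 19 of 1666 immune-like nuclei of Foxr2 p53LOF had a vector count. The analysed library of Foxr2 alone had 0 vector peaks, so no nucleus could be left out there and those ratios could hardly move. One astrocyte-like cluster of each library gave Nfia -0.0075, Nfib 0.49 and Nfix 1.19, and one immune-like cluster of each gave Nfia -0.40. For promoters, scaling to shared peaks gave neuron-like ratios of 0.15 and 0.19 at Nfia 1 and 2, -1.003 at Nfib 2, 0.069 at Nfic 2 and -0.068 at Nfix 1. The stricter minimums gave 0.16 in oligodendrocyte-like and -0.0010 in immune-like nuclei at Nfia 1. Naming each nucleus gave 0.98 at Nfia 2 in astrocyte-like nuclei, and at Nfib 2 -0.39 in neuron-like, -0.021 in astrocyte-like nuclei and -0.93 in OPC-like ones. Matched peaks gave -0.18 in neuron-like and 0.40 in oligodendrocyte-like nuclei at Nfib 2, and -0.58, -1.03, -0.76 and -0.050 in neuron-like, oligodendrocyte-like, OPC-like and immune-like nuclei at Nfix 2. Nfic 4 changed direction in oligodendrocyte-like nuclei, from -1.22 to 0.16 with the window of 3000 bases and 1.16 with matched peaks, and with matched peaks also in OPC-like nuclei, from -2.69 to 0.31, and in astrocyte-like nuclei, from -0.97 to 0.67. Matched peaks moved it from 0.18 to 1.27 in neuron-like and from -0.88 to -0.24 in immune-like nuclei, the window moved it to -0.53 in immune-like nuclei, and scaling to shared peaks to -0.13 in neuron-like ones. At Nfic 3 the window gave 2.29 to 3.65 in 4 classes, where the ratios had been 0.085 to 1.26, and the scaling 0.94 in neuron-like nuclei. A minimum of 1 CPM raised the genes past 2-fold from 3425 to 6996 in neuron-like, 3283 to 6452 in oligodendrocyte-like, 4076 to 6966 in astrocyte-like, 3552 to 7047 in OPC-like and 4258 to 7618 in immune-like nuclei.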

Other observations

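An unnamed cluster of 101 nuclei of Foxr2 p53LOF carried immune, OPC and astrocyte markers together and held 1712 CPM of Nfia [1640, 1786], 1096 of Nfib [1039, 1156], 37.7 of Nfic and 173 of Nfix. An unnamed cluster of 119 nuclei with oligodendrocyte and immune markers held 634 CPM of Nfia, 170.0 of Nfib, 33.8 of Nfic and 124 of Nfix. Neither entered a class. Smaller clusters with fibroblast markers (33 and 15 nuclei), mural markers (21 nuclei) or endothelial and mural markers (36 nuclei) were not among the classes compared.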
